A study of Mus musculus with 4 samples.

Results

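The interleukin-6 and gp130 cytokine axis was followed through 10 genes on 4 mouse heart arrays. In the test between the genotypes 0 of the 10 passed, and so did 0 of all 22931 features. Il6 varied most, by 65.7-fold between its highest array (WT) and its lowest (KO), with the other WT and KO arrays in between, while the shared receptor Il6st varied 1.27-fold. The 10 members were chosen by name, not by their values: the ligands Il6, Il11, Lif, Osm and Ctf1, the receptors Il6ra, Osmr and Il6st, the signal transducer Stat3 and the feedback inhibitor Socs3. Each was found through the RefSeq accession of its probe, and 10 of 10 were among the 22931 features tested, 15955 of which carried a gene symbol. Where a gene had several probes, the brightest stood for it.

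Hearts of male mice were taken 5 days after the left anterior descending coronary artery was tied off, which causes a myocardial infarction. Both groups had this operation. The knock-out (KO) mice are labelled VE-Cad-Cre-S1pr1 fl/fl: a Cre recombinase under the VE-cadherin promoter is meant to delete S1pr1, a receptor for sphingosine 1-phosphate, in endothelial cells, and the comparison mice are labelled WT with no further allele given. There were 2 arrays of each genotype, numbered 1 and 3 for WT and 3 and 4 for KO. Neither the animals' age nor whether each array came from its own mouse is stated, so the p-values cover the spread between these arrays, and that spread may be technical. RNA came from the heart as labelled, so a lower signal from fewer cells of a type cannot be told apart from less RNA per cell.

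S1pr1 itself was at 0.43 and 0.95 in WT and at -2.69 and -2.30 in KO. These values are log2 signal relative to the 75th percentile of each array, the scale of every level below. The S1pr1 difference, KO minus WT, was -3.19 (SE 0.38, unadjusted p = 0.000714 and adjusted p = 0.74 in limma). The target of the knock-out thus did not pass the test either. The 4 arrays shared 1 slide, and their position on it and the genotype cannot be told apart. Of all probes, 54.3% were well above background on WT replicate 1 and 69.4% to 73.4% on the other arrays. Ventricular cardiomyocyte markers, all 10 of them well above background on every array, averaged 2.32 on WT replicate 1 against 6.20 to 7.02 on the other 3. The 7 measured macrophage markers averaged 3.80 and 2.88 in WT against 2.47 and 0.89 in KO, lowest on KO replicate 4. By these measures WT replicate 1 stood apart in probes above background and cardiomyocyte markers, and KO replicate 4 in macrophage markers. The means of inflammatory monocyte (1.21), B cell (-5.21) and fibroblast markers (3.14) were also lowest on KO replicate 4. Those of cardiomyocyte (7.02) and endothelial markers (1.95) were highest there. Differences are therefore also given without WT replicate 1 or without KO replicate 4.

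Cytokines of this family signal through a shared receptor chain, gp130, encoded by Il6st. A ligand first meets its own partner chain: IL-6 binds the receptor encoded by Il6ra, oncostatin M the one encoded by Osmr, IL-11 that of Il11ra1, and LIF and cardiotrophin-1 (Ctf1) that of Lifr. The assembled receptor activates JAK kinases, which phosphorylate STAT3, and STAT3 induces Socs3, an inhibitor that binds gp130 and stops the signal. After infarction the ligands are known to come from leukocytes, fibroblasts and stressed cardiomyocytes, and the pathway is known both for the acute-phase response and for cardiomyocyte survival and growth. An array measures the transcripts and not STAT3 phosphorylation.

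The promoters of Il6, Il11, Lif and Socs3 are shown because these 4 transcripts shared their highest array, WT replicate 1, and their lowest, KO replicate 4. Each stretch holds the 250 bases before the gene's start in RefSeq (GRCm38.p6), written 5′ to 3′ on the gene's strand. RefSeq stretches were found for 9 of the 10 members by symbol; Osm had none in the table used. Capitals mark matches on either strand to TTCNNNGAA (STAT), GGGANTTTC (NF-kB), TGANTCA (AP-1) and TTGNGCAA (C/EBP), motifs picked after the sequences were seen. The Il6 stretch is chr5:30012864-30013113 on the plus strand, the Il11 stretch chr7:4778142-4778391 on the minus strand, the Lif stretch chr11:4257318-4257567 on the plus strand and the Socs3 stretch chr11:117969367-117969616 on the minus strand.
Il6: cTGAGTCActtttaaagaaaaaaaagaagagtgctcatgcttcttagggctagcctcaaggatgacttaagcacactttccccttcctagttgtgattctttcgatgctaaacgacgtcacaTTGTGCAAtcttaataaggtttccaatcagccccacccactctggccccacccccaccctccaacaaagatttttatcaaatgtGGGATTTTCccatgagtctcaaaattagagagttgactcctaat
Il11: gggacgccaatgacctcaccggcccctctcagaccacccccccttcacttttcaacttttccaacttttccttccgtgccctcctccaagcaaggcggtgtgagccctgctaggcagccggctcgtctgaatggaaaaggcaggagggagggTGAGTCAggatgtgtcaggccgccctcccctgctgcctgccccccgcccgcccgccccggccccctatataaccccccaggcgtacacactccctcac
Lif: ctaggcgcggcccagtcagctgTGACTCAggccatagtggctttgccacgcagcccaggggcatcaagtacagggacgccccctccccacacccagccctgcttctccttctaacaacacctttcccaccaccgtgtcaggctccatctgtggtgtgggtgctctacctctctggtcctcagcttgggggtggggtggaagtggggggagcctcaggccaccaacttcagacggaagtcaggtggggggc
Socs3: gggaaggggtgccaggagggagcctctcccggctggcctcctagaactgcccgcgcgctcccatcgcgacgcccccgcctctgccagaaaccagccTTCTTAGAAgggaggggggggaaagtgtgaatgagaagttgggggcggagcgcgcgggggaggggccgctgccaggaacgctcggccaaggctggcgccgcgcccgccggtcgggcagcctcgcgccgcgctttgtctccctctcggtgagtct

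The Il6 stretch held an NF-kB match beginning 44 bases before the start, a C/EBP match at 128 bases and an AP-1 match at 249 bases. Lif and the Il11 stretch shown, the more downstream of 2 in the table, each held an AP-1 match, at 228 and 98 bases. The other Il11 stretch held no match to any of these motifs. Socs3 held the only STAT match among the members, at 154 bases. Over all 32851 promoter entries, 7.02% held the STAT motif, 0.941% the NF-kB motif, 6.749% the AP-1 motif and 2.609% the C/EBP motif within the same 250 bases. The other 5 members with an entry had no match. No overlap between motifs occurred in the 4 stretches, and a match is a run of letters, not a measured binding site.

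Il6, the cytokine after which the family is named, had the widest spread of all members. Its level was 1.94 and -0.83 in WT and 1.53 and -4.10 in KO. The highest and the lowest array thus differed 65.7-fold, and only 0.528% of all features had a range at least as wide. One array of each genotype was high and the other lower, with KO replicate 4 far below the rest, and the genotypes overlapped. The mean difference, KO minus WT, was -1.84 on the log2 scale (SE 2.14, 95% interval -7.60 to 3.92; limma adjusted p = 0.774). The 2 KO arrays differed 49.4-fold from each other, more than the means of the genotypes (3.58-fold). Without KO replicate 4 the difference turned to 0.98, and without WT replicate 1 it shrank to -0.45. It was -3.22 without WT replicate 3 and -4.65 without KO replicate 3, the KO array on which Il6 was high. Within the arrays numbered 3, KO was 5.13-fold above WT. The mean of the macrophage markers was also lowest on KO replicate 4 (0.89), as were 5 of the 7 markers. On KO replicate 3 their mean (2.47) lay below that on WT replicate 3 (2.88), but 3 of the 7, Cd14, Adgre1 and Csf1r, lay above it, as Il6 did; the part of macrophages in the Il6 values was not tested.

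Il11, a gp130 ligand known for its action on fibroblasts, and Lif, leukemia inhibitory factor, were both highest on WT replicate 1. Il11 was at -0.41 and -2.98 in WT and at -2.35 and -3.50 in KO. Only WT replicate 1 stood out, 3.83-fold above KO replicate 3, the next array; WT replicate 3 lay between the KO arrays. The difference was -1.23 (SE 0.999, 95% interval -3.92 to 1.45), and it was 0.05 without WT replicate 1 and -0.66 without KO replicate 4. Lif was at -2.57 and -4.73 in WT and at -4.05 and -5.63 in KO. Again WT replicate 1 was highest and WT replicate 3 lay between the KO arrays. The Lif difference was -1.19 (SE 0.96, 95% interval -3.76 to 1.38), and it shrank to -0.11 without WT replicate 1 and -0.40 without KO replicate 4. The adjusted p of both genes was 0.740 in limma. Lif was well above background on 4 arrays, but its levels on WT replicate 3 and KO replicate 4 lay below the dimmest signal that WT replicate 1 could call (-4.39). With a common floor under dim signals the Lif difference was -0.74, and with normexp background correction it was -0.46 after scaling by the 75th percentile.

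Osm, oncostatin M, a product of activated macrophages and neutrophils, was close to background. Its level was -4.54 and -5.11 in WT and -4.42 and -5.47 in KO. On WT replicate 1 the signal was not well above background, so only 1 of the WT arrays measured it. The 4 values overlapped between genotypes and all lay below -4.39, the level of the dimmest signal called on WT replicate 1. The fitted difference of -0.12 (SE 0.51, adjusted p = 0.936 in limma) uses that dim value, and it was 0.17 without WT replicate 1 and 0.41 without KO replicate 4.

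Ctf1, cardiotrophin-1, a cytokine named for its effect on cardiomyocyte growth, was the only member with a higher mean in KO. It was at -2.12 and -0.45 in WT and at -1.13 and -0.039 in KO. Here WT replicate 1 was lowest and KO replicate 4 highest, the reverse of Il6, Il11, Lif and Socs3, and the genotypes overlapped. The difference was 0.70 (SE 0.74, 95% interval -1.29 to 2.68; limma adjusted p = 0.760), and leaving out WT replicate 1, WT replicate 3 or KO replicate 4 moved it to -0.14, 1.53 or 0.15. The array carries 10 spots of this probe, whose SD within an array was 0.0325 to 0.0677 on the log2 scale. The WT arrays differed by 1.67; the spot SD covers neither labelling nor hybridization. Cardiomyocyte markers were lowest on the same array (2.32) and highest on KO replicate 4 (7.02), as Ctf1 was; their part in the Ctf1 values was not tested.

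**Figure D1:**
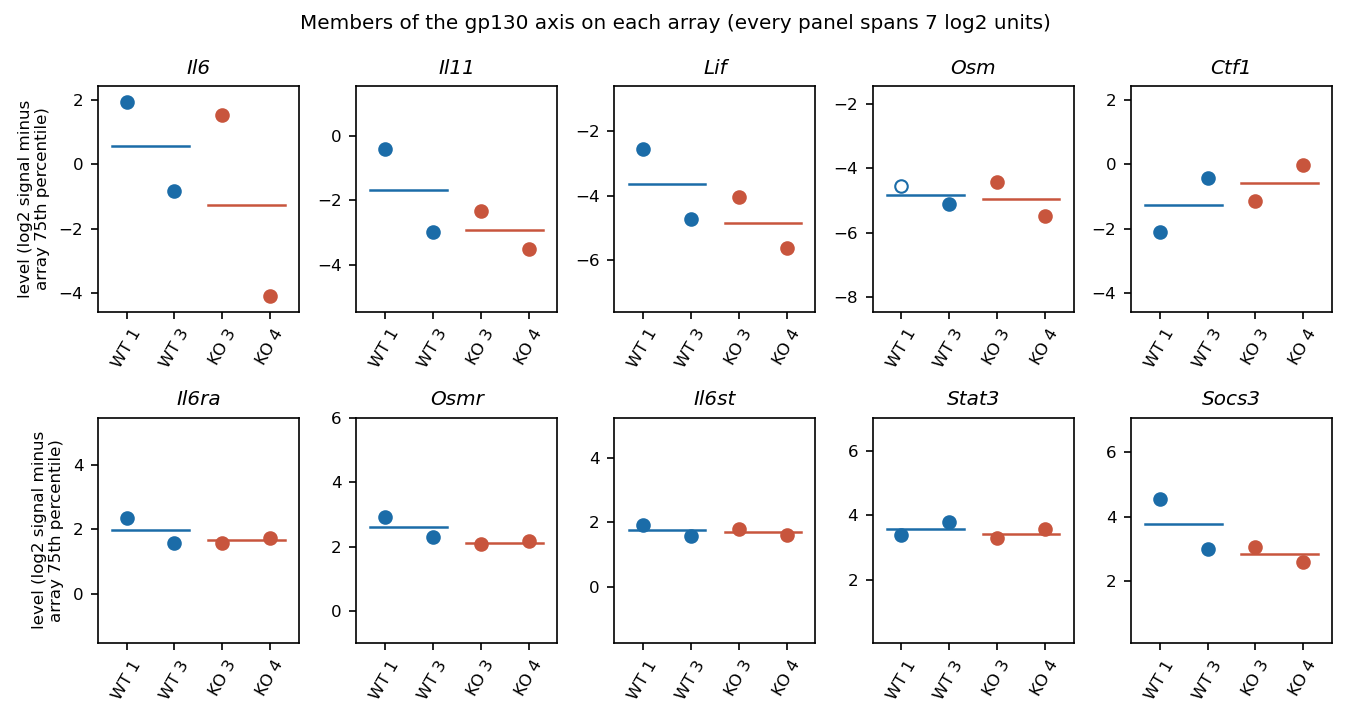
Levels of the 10 members on each array, in log2 signal minus the 75th percentile of the array; every panel spans 7 log2 units, bars are genotype means of 2 arrays, and the open point (Osm on WT replicate 1) was not well above background. Il6 ran from 1.94 to -4.10, whereas Il6st stayed between 1.58 and 1.92.

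The receptors varied little. Il6ra, the IL-6 binding chain, was at 2.37 and 1.58 in WT and at 1.59 and 1.74 in KO. Of these arrays 3 lay within 0.16 of each other, and WT replicate 1 was higher. Its difference was -0.31 (SE 0.41), and -0.71 without WT replicate 3 against 0.082 without WT replicate 1. Il6st, the shared gp130 chain, was at 1.92 and 1.58 in WT and at 1.79 and 1.61 in KO, so that the genotypes overlapped. Its whole range was 0.34, or 1.27-fold, and 89.7% of all features had a range at least as wide. The gp130 difference was -0.056 (SE 0.33, 95% interval -0.94 to 0.83; limma adjusted p = 0.954), and it was 0.115 without WT replicate 1 and 0.034 without KO replicate 4. That interval reaches from 0.521-fold to 1.78-fold, so a change within these bounds could not be seen.

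Osmr, the oncostatin M receptor, was the only member whose arrays did not overlap between genotypes. It was at 2.93 and 2.30 in WT and at 2.09 and 2.16 in KO. The KO arrays were within 0.077 of each other, and WT replicate 3 was only 0.14 above the higher of them. The difference was -0.49 (SE 0.37, 95% interval -1.48 to 0.51; limma adjusted p = 0.740). Over 17 alternative settings the difference ran from -0.80 without WT replicate 3 to -0.18 without WT replicate 1. Its sign could not turn when arrays were left out, since the genotypes did not overlap. Nor could it turn in settings that used the same probe values. Other scaling or background correction, which could have turned the sign, gave -0.49 to -0.60. With 2 arrays a side, the exact permutation test (two-sided) cannot go below the p = 0.333 it gave here. Over all features the genotypes' arrays did not overlap for 34.4%, lower in KO for 16.1% and higher for 18.3%, so 1 of 10 members is below that background.

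Stat3, the transcription factor of the pathway, varied less between arrays than Socs3, the other member downstream of the receptors. It was at 3.39 and 3.78 in WT and at 3.28 and 3.56 in KO, with overlapping genotypes and a range of 0.49. The difference was -0.16 (SE 0.34, 95% interval -1.08 to 0.76; limma adjusted p = 0.867), and it was -0.36 without WT replicate 1 and -0.30 without KO replicate 4. Its 10 spots per array had an SD of 0.0195 to 0.0255. A second, dimmer Stat3 probe, designed to another RefSeq transcript record, was at -2.68 and -2.26 in WT and at -2.36 and -2.13 in KO. It differed by 0.23, in the other direction, and averaging both probes gave 0.032.

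Socs3, which STAT3 induces and which blocks gp130, was at 4.55 and 2.99 in WT and at 3.06 and 2.61 in KO. WT replicate 1 was high, and the other WT array lay between the KO arrays. The difference was -0.93 (SE 0.63, 95% interval -2.62 to 0.75; limma adjusted p = 0.740). Without WT replicate 1 it was -0.16, without KO replicate 4 it was -0.71, and within the arrays numbered 3 it was 0.070. Without WT replicate 3 it was -1.71, with an unadjusted p = 0.0189 and an adjusted p = 0.222 in limma. Macrophage markers were also highest on WT replicate 1 (3.80). The 7 neutrophil markers averaged 0.71 there against -1.44 to -0.89 elsewhere, and 5 of the 7 were highest there. The part of these cells in the Socs3 values was not tested.

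**Figure D2:**
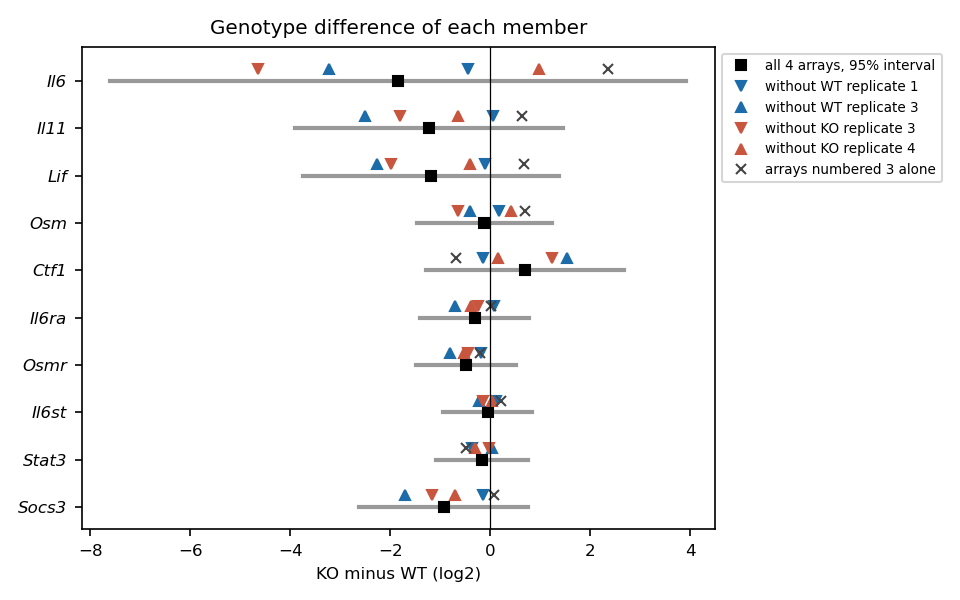
KO minus WT difference of each member on the log2 scale: squares are the fit over 4 arrays with its 95% interval, triangles leave out 1 array each and crosses set KO replicate 3 against WT replicate 3. Every interval contains 0, and for Il6 the values run from -4.65 without KO replicate 3 to 2.36 between the arrays numbered 3.

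Across the members, limma called 0 of 10 at an adjusted p under 0.05, where it called 0% of all 22931 features (smallest adjusted p 0.642). At an unadjusted p under 0.05 it counted 0 of 10 members, beside 2.76% of all features (633). Without WT replicate 3, 3 members (Il11, Lif and Socs3) had an unadjusted p under 0.05, and so did 4251 features; none passed the adjustment. A lower mean in KO was found for 9 of 10 members, beside 45.2% of all features, and the median difference was -0.40 against 0.072 over all features. That count was 6 without WT replicate 1 and 6 without KO replicate 4, so it rests in part on each of these arrays. The members share arrays and are not separate replicates.

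Several members shared their highest or their lowest array, and the part of the genotype in this order was not tested. WT replicate 1 was the highest array for 7 of the 10 members, beside 39.0% of all features. KO replicate 4 was the lowest for 5, beside 27.6%. Il6, Il11, Lif and Socs3 met both conditions, as did 23.5% of all features. In the 4 of them the arrays numbered 3 lay between, and there KO was above WT by 2.36, 0.63, 0.68 and 0.070 on the log2 scale.

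The genes most like each member were sought among 12910 other named genes well above background on 4 arrays. Likeness was the root mean square distance between levels, each gene first centred on its mean over the 4 arrays. The nearest to Il6 were Il1b, the inflammatory cytokine interleukin-1 beta (distance 0.51), and Saa3, an acute-phase serum amyloid (0.54). Il1b was at 2.27 and -1.33 in WT and at 1.23 and -3.32 in KO. Saa3 was at 2.06 and -1.09 in WT and at 0.85 and -3.30 in KO. Both thus shared the high WT replicate 1 and KO replicate 3 and the low KO replicate 4 of Il6, and 0 genes lay within 0.25 of it.

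For Il11 the nearest were Mirg (0.044), a noncoding transcript, and Thbs1 (0.099), which encodes the matrix protein thrombospondin-1. Only 28 genes lay within 0.25 of Il11. For Lif they were Ugt1a6b (0.062) and Adamts14 (0.079), a procollagen-processing protease, with 87 genes within 0.25. For Socs3 they were Trpm2 (0.043), a cation channel, and Acta2 (0.047), smooth muscle actin, and for Ctf1 they were Bnip3 (0.028), a mitophagy receptor, and Per1 (0.049), a clock gene. The flat receptors and Stat3 each had 2737 to 4338 genes within 0.25: the nearest were Mrc1 and Cebpz for Il6ra, Marchf8 and Brix1 for Osmr, 1810013L24Rik and Cds2 for Il6st and Map2k4 and Sema7a for Stat3. With 4 arrays such likeness describes these hearts only. Among the members themselves Il6ra and Osmr were closest (0.11), followed by Il11 and Lif (0.21).

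**Figure D3:**
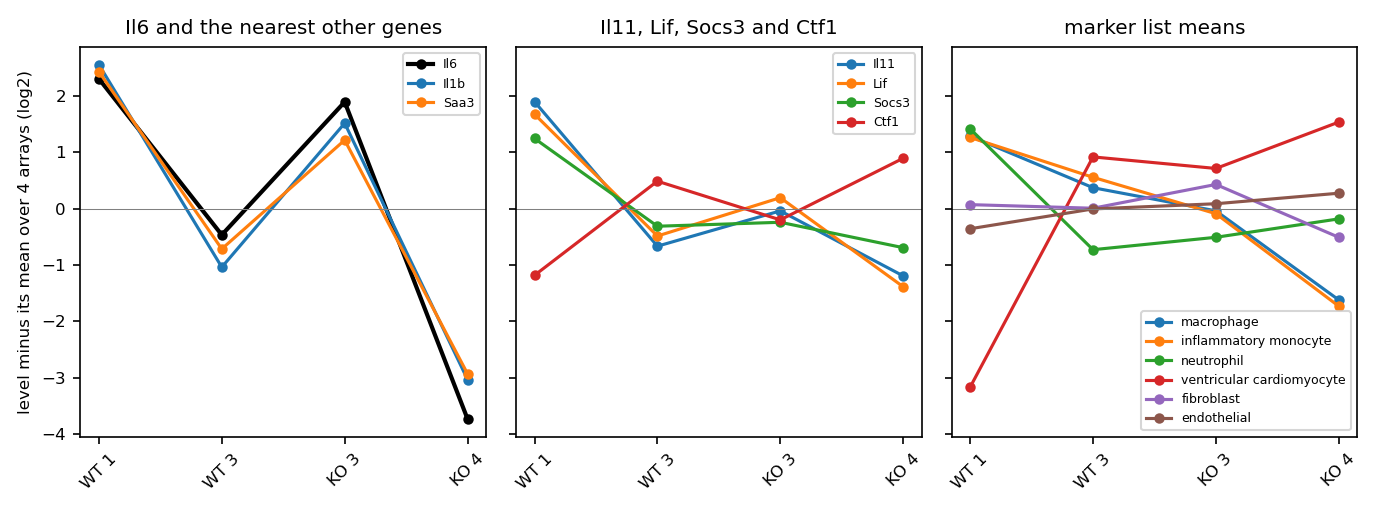
Levels centred on their mean over the 4 arrays, in log2 units, with lines only to guide the eye since the arrays have no order: Il6 with Il1b and Saa3 (left), Il11, Lif, Socs3 and Ctf1 (middle) and the means of marker lists (right). Il6 was high on WT replicate 1 and KO replicate 3 and low on KO replicate 4, while Ctf1 and the cardiomyocyte markers were lowest on WT replicate 1.

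The other cytokines of the family gave both directions. Of 5 measured, 0 were called, 3 had a lower and 2 a higher mean in KO, and the median difference was -0.002. Clcf1, a cardiotrophin-like cytokine, was at -4.29 and -3.71 in WT and at -2.84 and -1.56 in KO, so the genotypes did not overlap. Its difference was 1.80 (SE 0.56, unadjusted p = 0.0293 and adjusted p = 0.740 in limma). Ctf2, a relative of Ctf1, differed by 1.44 (SE 0.72) and was not well above background on WT replicate 1. Cntf, ciliary neurotrophic factor, differed by -0.50 (SE 0.43), with overlapping genotypes. Without WT replicate 1 the differences of Clcf1, Ctf2 and Cntf were 1.51, 0.62 and -0.093, and without KO replicate 4 they were 1.16, 0.91 and -0.295. Il31 was well above background on 0 arrays.

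All 5 other receptors of the family had a higher mean in KO, with a median of 0.39, and 0 were called. Over all features 45.2% had a lower mean in KO. Lifr, through which LIF and cardiotrophin-1 signal, was at 0.95 and 2.20 in WT and at 1.84 and 3.14 in KO. Its difference was 0.92 (SE 0.68), with overlapping genotypes and, as for Ctf1, the lowest value on WT replicate 1 and the highest on KO replicate 4. Without the first it was 0.295 and without the second 0.27. Il11ra1, the IL-11 receptor, differed by 0.39 (SE 0.34) and Il27ra by 0.62 (SE 0.34), without overlap. These differences were 0.30 and 0.79 without WT replicate 1 and 0.17 and 0.77 without KO replicate 4. Il31ra differed by 0.124 (SE 0.369) and was not well above background on WT replicate 1. Cntfr differed by 0.049 (SE 0.726). Without WT replicate 1 the Il31ra and Cntfr differences were -0.133 and 0.939, and without KO replicate 4 they were -0.057 and -0.351. Mouse genomes carry a near-identical copy of Il11ra1, so its probe may read more than 1 gene. The 3 proteins that shed IL-6 family receptors or steer that shedding had lower means, from -0.60 for Adam10 through -0.22 for Adam17 to -0.003 for Rhbdf2, and 0 were called. In that order they were -0.28, 0.072 and 0.37 without WT replicate 1, and -0.16, -0.11 and -0.093 without KO replicate 4.

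The transducers next to gp130 varied little, and 0 of 7 were called. Jak1, the main kinase on gp130, differed by -0.42 (SE 0.37), the phosphatase Ptpn11 by 0.41 (SE 0.42) and Stat5b, another STAT transcription factor, by 0.38 (SE 0.41). Without WT replicate 1 these were -0.11, 0.026 and 0.21, and without KO replicate 4 they were -0.31, 0.22 and -0.01. The list's median difference was 0.047. Among 6 measured inhibitors other than Socs3, 0 were called and 3 had lower means. Socs1, also induced by cytokines, was at -0.18 and -0.57 in WT and at -0.64 and -2.42 in KO, a difference of -1.15 (SE 0.68). The tyrosine phosphatase Ptpn1 differed by -0.46 (SE 0.36). Without KO replicate 4 the Socs1 and Ptpn1 differences were -0.26 and -0.29, and without WT replicate 1 they were -0.96 and -0.215. Cish, an inhibitor better known downstream of STAT5, was at 1.95 and 5.31 in WT and at 4.495 and 5.72 in KO, a difference of 1.48 (SE 1.25), and so was lowest where the cardiomyocyte markers were. Without that array, WT replicate 1, the Cish difference turned to -0.20, and without KO replicate 4 it was 0.87.

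STAT3-responsive and acute-phase genes did not move one way: of 19 measured, 0 were called, 11 had lower and 8 higher means, and the median was -0.14. Those of smallest p were Il4ra, a receptor chain for interleukin-4 (-2.05, SE 0.88), Runx1, a transcription factor of stressed and dedifferentiating cardiomyocytes and of blood cells (-2.43, SE 1.11), and Timp1, an inhibitor of matrix proteases (-2.94, SE 1.57). Timp1 was at 5.89 and 4.29 in WT and at 4.29 and 0.014 in KO. The arrays numbered 3 thus held alike levels and KO replicate 4 was far lower. Without KO replicate 4 the differences of Il4ra, Runx1 and Timp1 were -1.86, -1.14 and -0.80, and without WT replicate 1 they were -0.84, -1.54 and -2.14. Of 9 measured genes of the NF-kB and IL-1 input, 0 were called and 6 had lower means. Ptgs2, cyclooxygenase-2, differed by -1.64 (SE 1.42), while the feedback inhibitors Nfkbia and Tnfaip3 differed by 0.54 (SE 0.44) and 0.65 (SE 0.57). In that order the differences were 0.075, 0.815 and 1.32 without WT replicate 1, and -0.53, 0.17 and 0.41 without KO replicate 4.

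**Figure D4:**
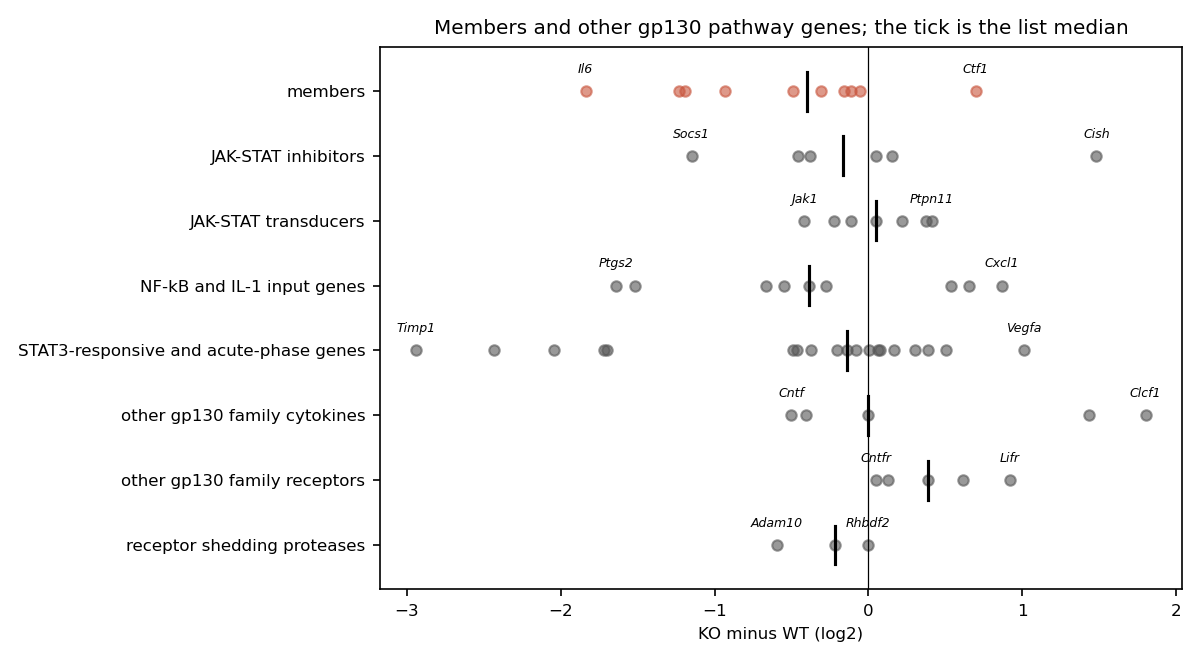
KO minus WT differences on the log2 scale for the 10 members and for the measured genes of 7 pathway lists; each point is a gene, the tick is the list median and the outermost genes are named. The members' median was -0.40 and that of the other family receptors 0.39.

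Markers of the cells that could supply these transcripts moved between the arrays as well. Inflammatory monocyte markers, 6 of 6 measured, averaged 4.204 and 3.50 in WT against 2.85 and 1.21 in KO. Fibroblast markers averaged 3.72 and 3.66 in WT and 4.08 and 3.14 in KO. Of these 8 markers 5 were lowest on KO replicate 4, yet 4 had a higher and 4 a lower mean in KO. Endothelial markers averaged 1.32 and 1.67 in WT against 1.77 and 1.95 in KO. Mesothelial markers averaged -0.24 on WT replicate 1 and -1.44 to -0.96 elsewhere. T cell markers stayed between -3.77 and -2.94, and the 3 measured B cell markers ran from -5.21 on KO replicate 4 to -0.42 on KO replicate 3. The B cell gene Ms4a1 was not well above background on KO replicate 4. As for Il6, B cell markers were higher on WT replicate 1 and KO replicate 3 than on the other arrays and lowest on KO replicate 4, a likeness seen after the values were known. The part of any of these cells in the members' values was not tested.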

How the data were processed

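The authors deposited 1 Agilent Feature Extraction file per array; per the file headers (version 11.0.1.1; the submitters' processing notes give 9.1) the intensity used, the processed signal, was background-subtracted and spatially detrended, and the spot flags are other values used as given. The deposited value table holds log2 values with equal medians (6.116) and equal 75th percentiles (9.752). They were normalized between arrays with a method not given in the sources used here. The slope of the deposited values on the log2 processed signal was 0.985 to 1.02.

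Control and outlier spots were left out, spots of a probe averaged on the log2 scale, and the 75th percentile of each array subtracted. Of 39429 probes, 27234 were named with 1 symbol and 12195 with none through RefSeq (GRCm38.p6, names only, since the grid names mm9). A probe was kept if well above background on 2 or more arrays, brightest probe per gene. The genotypes were compared across all features with limma 3.58.1 (R 4.3.3, lmFit and eBayes), two-sided, Benjamini-Hochberg threshold 0.05. A check on simulated data required changed genes to be recovered only at a spread far smaller than that of these arrays. It therefore does not show what the test could find here. Of the genes outside the members, the 3 of smallest unadjusted p in each pathway list were named. So were the 2 nearest in pattern to each member. S1pr1 checks the genotype. Il31, Il31ra, Cntfr, Ms4a1, Cd14, Adgre1 and Csf1r were named after their values were seen. The values of pathway genes without 1 array were added then too. Some genes of the lists are not reported here. Members, lists and rules were chosen with earlier results of these data known. No spot was saturated, and 2 arrays per genotype limit the precision. Alternatives covered scaling, background correction, dim-probe filters, probe choice, variance model, threshold and each array left out.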

Additional observations from a re-analysis of the deposited data

How the results depend on the processing

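Limma called 0 features and 0 members in each of 16 alternative fits, with an adjusted p as low as 0.205 for any member (Il11 without WT replicate 3). Scaling by quantiles or the median and the deposited values kept the sign of every member. The deposited values gave nearly the same differences as quantile scaling (Il6 -1.849 in both), so they are hardly a separate check. Both dim-probe filters and trend and robust eBayes used the same probe values for the members they measured. They therefore could not move a difference. Osm was not measured on 4 arrays and had no order under a common floor. The sign turned for Osm with normexp on median signals scaled by the 75th percentile (0.15), a setting chosen after seeing the data like the other use of normexp, and for Stat3 with the mean of its probes (0.032). Leaving out 1 array at a time gave ranges that include 0 for Il6 (-4.65 to 0.98), Il11 (-2.52 to 0.05), Osm (-0.64 to 0.41), Ctf1 (-0.14 to 1.53), Il6ra (-0.71 to 0.082), Il6st (-0.23 to 0.12) and Stat3 (-0.36 to 0.035); Lif, Osmr and Socs3 stayed below 0. Osmr had to stay below 0, since its arrays did not overlap between the genotypes. The count of members lower in KO was 6 to 9 in these fits. The cause was not tested. The lone array left in a genotype is then assumed to vary like the others. The planned normexp on mean signals was not run, since the median signal was used in its place, and no block for slide could be fitted with 1 slide. No paired analysis was possible because the genotypes share only the number 3. Signal over background limits Osm and, on WT replicate 3 and KO replicate 4, Lif, whose difference of -1.19 was -0.74 with the common floor, -0.69 with normexp and quantiles and -0.46 with normexp and the 75th percentile. The Il6 difference was -1.30 and -1.22 in those 2 uses of normexp.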
